A study of Mus musculus with 4 samples.

Results

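The miR-34 family is a small group of related miRNAs, whose RNA was followed here in exosome fractions released by 3T3-L1 cells at 4 stages of adipocyte culture. The members were chosen by name and are mmu-miR-34a-5p, mmu-miR-34b-5p, mmu-miR-34b-3p, mmu-miR-34c-5p and mmu-miR-34c-3p, which are 5 of the 1881 miRNAs on the array. 3T3-L1 is a preadipocyte line of the mouse, and the exosome fraction was pelleted from its medium by ultracentrifugation. D0 was the day on which the cells were moved from growth medium to medium with 1-methyl-3-isobutylxanthine, dexamethasone and insulin, and D4, D12 and D16 came after a further change to medium with insulin alone. All media held serum depleted of exosomes, penicillin and streptomycin. RNA of each day was labelled with Cy3 and read on 1 single-colour mouse miRNA array. Each array received a pool of independent cultures, so no day has a replicate array and no p-value can be given.

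The family comes from a gene for miR-34a and from a separate gene that gives miR-34b and miR-34c in a common transcript. Both are classical targets of p53, and the 5p arms lower the mRNAs of many regulators of the cell cycle and of survival, such as Ccnd1, Cdk6 and Bcl2. A miRNA hairpin is cut into a 5p arm and a 3p arm, of which Argonaute usually keeps a single arm as the guide while the partner is degraded. In fat, miR-34a is known for its rise in obesity and for lowering Sirt1, and it has been described as cargo of adipocyte vesicles taken up by macrophages. miR-34b and miR-34c are best known from multiciliated epithelia and testis, where they act beside the miR-449 family.

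The sequences below show which members share a seed, the stretch from base 2 to base 8 that pairs with target mRNAs and is set in capitals. They were taken 5′ to 3′ from RefSeq (GRCm38.p6), where 4 of the 5 members matched by name, and mmu-miR-34c-5p is missing.
mmu-miR-34a-5p: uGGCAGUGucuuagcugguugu
mmu-miR-34b-5p: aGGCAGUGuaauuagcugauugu
mmu-miR-449a-5p: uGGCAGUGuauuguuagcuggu
mmu-miR-449c-5p: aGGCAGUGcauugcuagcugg
mmu-miR-34b-3p: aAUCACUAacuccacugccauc
mmu-miR-34c-3p: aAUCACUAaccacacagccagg
mmu-miR-34a-3p: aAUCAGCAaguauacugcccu
The seed GGCAGUG stood in 4 of the 1679 mature miRNAs of the RefSeq table, namely mmu-miR-34a-5p, mmu-miR-34b-5p, mmu-miR-449a-5p and mmu-miR-449c-5p. mmu-miR-34c-5p and mmu-miR-449b had no entry there, so the count could not include them. The 3p seed AUCACUA was shared by mmu-miR-34b-3p and mmu-miR-34c-3p alone, and the 3p arm of miR-34a has another seed. Beyond the seed, mmu-miR-34a-5p and mmu-miR-34b-5p differ by 4 edits (a substituted, added or removed base), mmu-miR-34b-3p and mmu-miR-34c-3p by 5, and mmu-miR-34a-5p and mmu-miR-449a-5p by 6. Both arms of mir-34b lie in a hairpin of 84 bases, shown here because both were measured, with the arms in capitals.
Mir34b hairpin: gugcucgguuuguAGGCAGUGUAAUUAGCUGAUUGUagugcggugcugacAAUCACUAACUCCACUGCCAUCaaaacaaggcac
In GRCm38.p6 it runs on the minus strand at chr9:51103562-51103645, with 451 bases between it and the Mir34c hairpin of the same strand, while Mir34a lies on the plus strand at chr4:150068454-150068555.

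The arrays differed in overall brightness, which bears on every ratio. On D0, D4, D12 and D16 the software detected 329, 426, 406 and 380 miRNAs. The files hold no scaling between arrays, and the median unscaled ratio to D0 over the miRNAs detected on both arrays was 2.47, 1.91 and 1.32 on D4, D12 and D16, or 1.30, 0.94 and 0.40 on the log2 scale. The D0 array, the denominator, was also the noisiest, with a median coefficient of variation between replicate spots of 21.1%, a value that the software's own range excludes, beside 7.19%, 7.78% and 8.07% on the later arrays. For each day equal protein amounts were mixed, and more vesicles in a sample and more of a miRNA per vesicle cannot be told apart from the array signals. Each member had 30 spots in all, 15 for each of 2 probes.

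mmu-miR-34a-5p, the member studied most in fat and muscle, was lowest at D0 and highest at D4. Its total gene signal, which is the intensity summed over those of its probes that exceed 3 times their error, was 5.11 ± 0.972, 37.9 ± 3.38, 29.1 ± 2.72 and 19.1 ± 1.92 on D0, D4, D12 and D16. Here and below, ± gives the error of the software, which covers variation within an array only. Unscaled, the signal of each later day lay above that of D0 by more than these errors. They do not measure the spread between cultures or arrays. Among the later days it was lower at each successive day, with a ratio of 0.766 ± 0.0990 for D12 over D4 and of 0.656 ± 0.0901 for D16 over D12. With each array divided by its 75th percentile over the 283 miRNAs seen on every array, these ratios were 0.992 and 0.953, so the order was kept and its steps nearly vanished. D12 over D4 stayed below 1 in all 15 alternatives, between 0.766 and 0.992, as did D16 over D4, between 0.503 and 0.946.

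**Figure D1:**
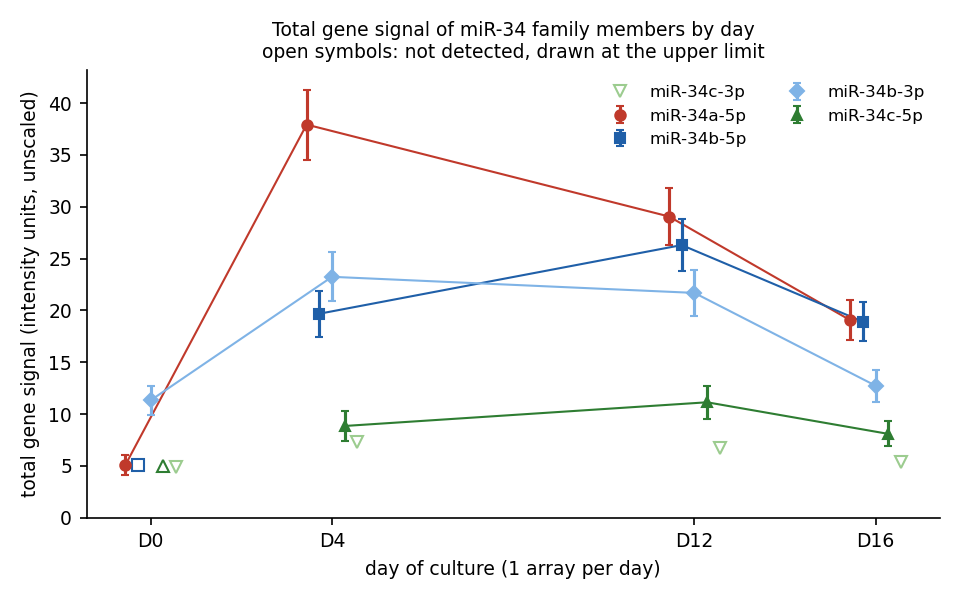
Total gene signal of the 5 members (vertical axis, unscaled intensity units) against the day of culture, with 1 array per day bars for the error within the array and open symbols for the upper limits of members not detected. Levels of different miRNAs are not comparable, while each can be followed across days: mmu-miR-34a-5p went from 5.11 at D0 to 37.9 at D4, an order that scaling by the 75th percentile kept with a smaller ratio of 1.74.

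The unscaled ratio of mmu-miR-34a-5p to D0 was 7.42 ± 1.56, 5.69 ± 1.21 and 3.73 ± 0.802 for D4, D12 and D16, all above the threshold of 2-fold. The ratio lay above 1 in each of the 15 alternatives tried, but its size and its side of the threshold depended on the scaling and on the probes summed. No error was computed for the alternatives, so whether the lowest of them differ from 1 was not established. The ratio was 4.07, 3.30 and 2.93 at D4, D12 and D16 when scaled to the 4 spike-in RNAs, 2.70, 2.40 and 2.24 with quantile normalization, and 1.74, 1.73 and 1.65 after scaling by the 75th percentile. The probes of this miRNA were not summed alike on all days. Probe A_54_P2498 reached 2.90 times its error at D0 and was left out of the D0 sum, while it reached 6.67, 6.09 and 5.34 times its error on the later days and was added there. Probe A_54_P2499 was detected on every day, with signals of 5.11, 27.3, 20.6 and 13.5 from D0 to D16. From this probe alone the ratios were 5.34, 4.03 and 2.65, and with both probes summed on every array they were 4.996, 3.83 and 2.51. Sums over both probes were also combined with scalings, which were alternatives chosen after the data were seen. The ratios were then 1.17, 1.16 and 1.11 with the 75th percentile, 1.69, 1.65 and 1.57 with the 90th, 1.77, 1.67 and 1.57 with the 90th over all miRNAs, and 2.74, 2.22 and 1.97 with the spike-in RNAs.

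Single spots showed the same order within the probe. The 15 spots of A_54_P2499 ran from 12.9 through a median of 26.2 to 31.3 at D0, from 85.2 through 99.5 to 113 at D4, from 66.8 through 77.2 to 83.0 at D12 and from 54.0 through 64.4 to 75.3 at D16. The D0 spots did not overlap with those of a later day. On the D0 array, spots of this probe ran from 12.9 to 19.1 in the left-hand part and from 17.3 to 31.3 in the right-hand part. Over right-hand spots of both probes the unscaled ratios to D0 were 3.56, 2.76 and 2.31 at D4, D12 and D16. Of the 10 probes of the family, 5 had all D0 spots below all spots of each later day without scaling, against 5.98% of the 4415 probes on the array. These were both probes of mmu-miR-34a-5p, both of mmu-miR-34b-5p and A_54_P1248 of mmu-miR-34c-5p. The share over the array includes many probes of miRNAs without signal, since 467 of the 1881 miRNAs were detected on at least 1 array. A share among probes of detected miRNAs was not counted, so the family is not shown to stand out from them. Spots of 1 array are not replicates of a day, and their distance includes the brightness of the arrays.

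**Figure D2:**
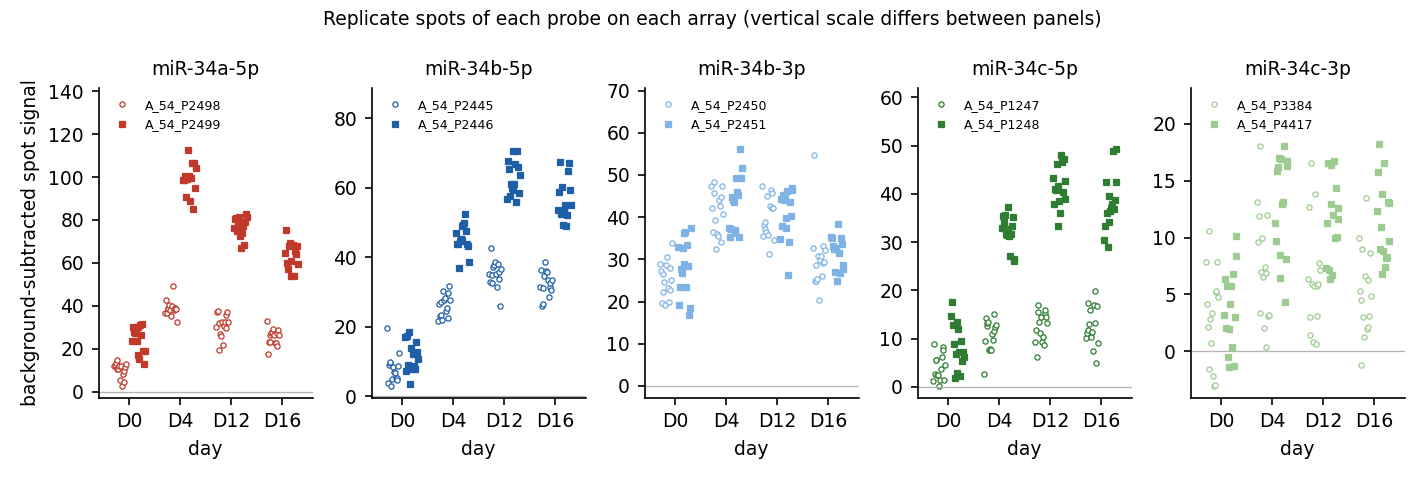
Background-subtracted signals of the 15 spots of each probe (vertical axis, intensity units, with its own scale in each panel) on the array of each day, with open circles for the first probe of a member and filled squares for the second. The D0 spots of A_54_P2499 of mmu-miR-34a-5p end at 31.3 and its D16 spots start at 54.0, while the spots of mmu-miR-34b-3p overlap between D0 and the later days.

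mmu-miR-34b-5p, which has the same seed, was not detected at D0 and was detected on each later day. Its signal was 19.7 ± 2.22, 26.3 ± 2.48 and 18.9 ± 1.86 from D4 to D16, each summed over both probes. At D0 its probes reached 1.99 and 2.81 times their error, below the limit of 3, and their sum was 4.07. Set against 3 times the error of its probes at D0, which is 5.09 and serves as the upper limit, the unscaled signal was 3.87, 5.17 and 3.72 times that limit on D4, D12 and D16. The software applied a larger effective spot size at D4 and D12 than at D0 and D16, and with a common size, a calculation chosen after the data were seen, it was 2.98, 4.08 and 3.72 times the limit. The D0 array also differed from side to side. The mean of the right-hand spots was 11.9 at D0 and 32.6, 45.4 and 41.0 on the later days. That of the left-hand spots was 7.59 and 38.5, 52.1 and 47.8, so that the size of the difference between days depends on the spots used. These means pool both probes, and the brighter one, A_54_P2446, had more spots on the left, so they do not compare the sides within a day. Spots of A_54_P2446 alone ran from 3.62 to 12.6 on the left and from 13.8 to 18.5 on the right at D0. At D12 they ran from 56.0 to 70.6 and from 56.8 to 70.7. After scaling by the 75th percentile the signal at D4 fell below the limit, and at D12 and D16 it was 1.57 and 1.64 times the limit. Unlike mmu-miR-34a-5p it was highest at D12, with a ratio of 1.34 ± 0.196 for D12 over D4 that lay above 1 in all 15 alternatives and a ratio of 0.719 ± 0.0981 for D16 over D12 that was 1.04 after scaling by the 75th percentile.

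mmu-miR-34c-5p, made from the same transcript as miR-34b, had a like course, with a signal from 1 of its 2 probes. That probe stood at 5.97, 7.11 and 6.76 times its error on D4, D12 and D16. It was not detected at D0, and its signal was 8.86 ± 1.48, 11.1 ± 1.57 and 8.10 ± 1.20 from D4 to D16. These sums hold only probe A_54_P1248, because A_54_P1247 stayed below 3 times its error on every day, with 2.99 times at D12 as its highest. Against the upper limit of 5.002 at D0 the unscaled signal was 1.77, 2.23 and 1.62 times as high on D4, D12 and D16, or at least 1.36-fold, 1.76-fold and 1.62-fold higher with a common spot size, again chosen after the data were seen, and below that limit on each day after scaling by the 75th percentile. Against the limit of the summed probe alone, 2.53 and also set after the data were seen, it was 3.50, 4.41 and 3.201 times as high unscaled and 0.822, 1.34 and 1.41 times with the 75th percentile. With both probes summed on every array its level was 2.70, 11.8, 14.6 and 10.8 from D0 to D16. The ratio of D12 over D4 was 1.26 ± 0.275, which differs from 1 by less than its error. The sequence of mmu-miR-34c-5p was missing from the table used, so its likeness to mmu-miR-34b-5p was not counted. Whether its probes also bind mmu-miR-34b-5p was not tested, so the like course is not an independent reading of the transcript.

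The 5p arms of the joint transcript differed in change from D4 to D12 by less than within-array error. Over these days mmu-miR-34a-5p differed from mmu-miR-34b-5p by more than such error. Within-array error does not measure the spread between cultures or arrays, so no departure between days is called. A difference between the log2 changes of 2 miRNAs does not depend on any factor common to an array. From D4 to D12 the change of mmu-miR-34b-5p exceeded that of mmu-miR-34c-5p by 0.09, with a 95% interval from -0.66 to 0.83 that covers within-array error only. Whether the probes of these 2 miRNAs tell them apart was not tested. Over the same days mmu-miR-34a-5p changed by -0.38 and mmu-miR-34b-5p by 0.42, a difference of -0.80 with an interval from -1.36 to -0.25. From D4 to D16 that difference was -0.93, with an interval from -1.50 to -0.37. Against mmu-miR-34c-5p the difference of mmu-miR-34a-5p was -0.72 from D4 to D12, with an interval from -1.43 to 0.00 at its upper end, and -0.86 from D4 to D16, with an interval from -1.60 to -0.13. Between D12 and D16 no difference was resolved: it was -0.13 against mmu-miR-34b-5p, with an interval from -0.68 to 0.42, and -0.15 against mmu-miR-34c-5p, from -0.84 to 0.55. None of the 4 members detected on both days passed 2-fold between D4 and D12 or between D12 and D16 without scaling, where 19.8% and 7.28% of all miRNAs did in either direction. After quantile normalization mmu-miR-34c-5p stood at 2.03 for D12 over D4, where 21.7% of all miRNAs were past 2-fold in either direction. For D16 over D4 it stood at 2.04, where 44 of 356 miRNAs were above 2-fold and 33 below 0.5. Its unscaled ratio for D16 over D4 was 0.914 and that of mmu-miR-34b-5p 0.961. Each of these 2 ratios was above 1 in 13 of the 15 alternatives.

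mmu-miR-34b-3p, the partner arm of mmu-miR-34b-5p, was detected on all 4 days by both probes. Its signal was 11.3 ± 1.42, 23.2 ± 2.36, 21.7 ± 2.19 and 12.7 ± 1.53 from D0 to D16. D4 and D12 did not differ beyond their errors, and neither did D0 and D16. The unscaled ratios to D0 were 2.05 ± 0.330, 1.91 ± 0.307 and 1.12 ± 0.195 for D4, D12 and D16, and the direction turned with some scalings, to 0.481, 0.581 and 0.496 with the 75th percentile and 0.758, 0.845 and 0.712 after quantile normalization. With the spike-in RNAs the ratios were 1.12, 1.11 and 0.882. Its place among the miRNAs does not depend on a factor common to an array: it ranked 194 of 317 in D4 over D0, 149 of 297 in D12 over D0, where it is itself the median miRNA, and 179 of 289 in D16 over D0.

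mmu-miR-34c-3p, which shares the seed of mmu-miR-34b-3p, was not detected on any day. Its upper limit was 4.94, 7.36, 6.78 and 5.38 from D0 to D16. The higher of its probes, A_54_P4417, stood at 0.939 times its error at D0 and at 2.83, 2.69 and 2.67 times on the later days, so that it came near the limit of detection without passing it. mmu-miR-34a-3p, the partner of mmu-miR-34a-5p and not a member by the rule, was far from it, with 0.543 times its error as the highest value of its probes. In all, 2 of 5 members were detected at D0 and 4 of 5 on every later day. Of the 1552 miRNAs not detected at D0, 4.32% were detected on all 3 later days, as were mmu-miR-34b-5p and mmu-miR-34c-5p. Most of these 1552 were not detected on any day, since 467 of all 1881 miRNAs were detected on at least 1 array. The share among those detected on some later day was not counted, so 4.32% does not make such a gain rare among them.

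**Figure D3:**
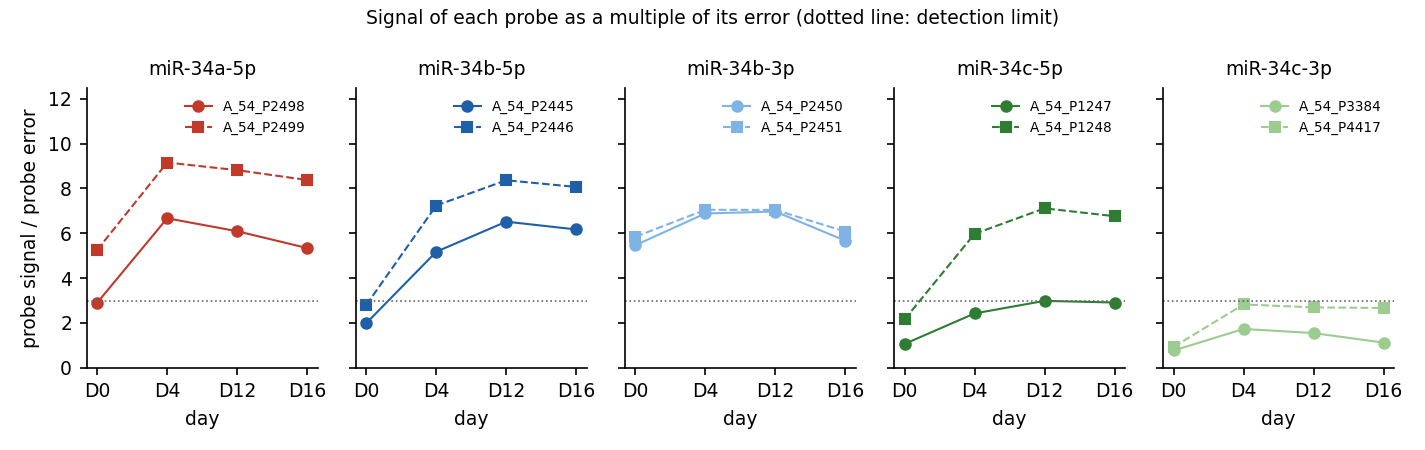
Signal of each probe divided by its error (vertical axis, no unit) by day, with a panel per member and a dotted line at the detection limit of 3. At D0 only A_54_P2499 of mmu-miR-34a-5p and both probes of mmu-miR-34b-3p lie above the line, and A_54_P4417 of mmu-miR-34c-3p stays just below it on the later days.

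The arms of mir-34b could be set against each other by their changes. From D4 to D12 the 5p arm changed by 0.52 more than the 3p arm on the log2 scale, with a 95% interval from -0.06 to 1.098 from within-array error. From D4 to D16 the difference was 0.81, with an interval from 0.20 to 1.42. No difference from D0 is given, since the 5p arm was not detected there. Set beside all hairpins, the size of the difference was near the middle from D4 to D12 and larger than most from D4 to D16. Of 36 hairpins with both arms detected at D4 and D12, 30.6% had arms more than 2-fold apart in change, the median of the size of the difference was 0.58, 18 hairpins differed by more than mir-34b and 5 had a higher 5p value relative to 3p. Of 33 from D4 to D16 the median size was 0.38, 12 differed by more and 4 had a higher 5p value. From D0, where mir-34b has no detected 5p arm, the median over hairpins with both arms detected was negative, at -0.56, -1.19 and -1.20 for D4, D12 and D16. The gain of an arm was counted over another set of hairpins. Of 114 hairpins with the 3p arm and not the 5p arm detected at D0, 2.63% had both arms detected on all later days, namely mir-34b, mir-15a and mir-195a, of which mir-195a was chosen after its values were seen.

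Many miRNAs besides the family were above their D0 signal on the later arrays. Without scaling, 2 of the 2 members detected at D0 and D4 were above 2-fold at D4, where 62.1% of 317 miRNAs were. At D12 and at D16 1 of 2 was above, mmu-miR-34a-5p, where 47.8% of 297 and 31.1% of 289 were. After quantile normalization mmu-miR-34a-5p was above on each day and mmu-miR-34b-3p on none, where 11.7%, 12.8% and 13.8% of the miRNAs were above at D4, D12 and D16. The split of all calls turned as well: at D12 142 miRNAs were above 2-fold and 10 below 0.5 without scaling, 38 and 77 after quantile normalization, and 30 and 114 with the 75th percentile. At D4 these were 197 and 1, 37 and 66, and 21 and 131, and at D16 90 and 27, 40 and 66, and 33 and 113.

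By rank, which no factor common to an array changes, mmu-miR-34a-5p stood high. It ranked 29 of 317 in D4 over D0, 35 of 297 in D12 over D0 and 38 of 289 in D16 over D0, and its ratios were 3.01, 2.97 and 2.83 times the median of those miRNAs. With all probes summed for every miRNA it ranked 51, 46 and 54, at 2.09, 2.08 and 1.96 times the median. Its ratio relative to mmu-miR-34b-3p was 1.86, 1.57 and 1.73 on the log2 scale for D4, D12 and D16, with 95% intervals from within-array error of 1.11 to 2.60, 0.82 to 2.32 and 0.95 to 2.51. With both probes summed on every array the difference was smaller, at 1.29, 1.001 and 1.16. In changes after D4 the order was another: from D4 to D12 mmu-miR-34b-5p ranked 43, mmu-miR-34c-5p 56, mmu-miR-34b-3p 150 and mmu-miR-34a-5p 258 of 374.

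**Figure D4:**
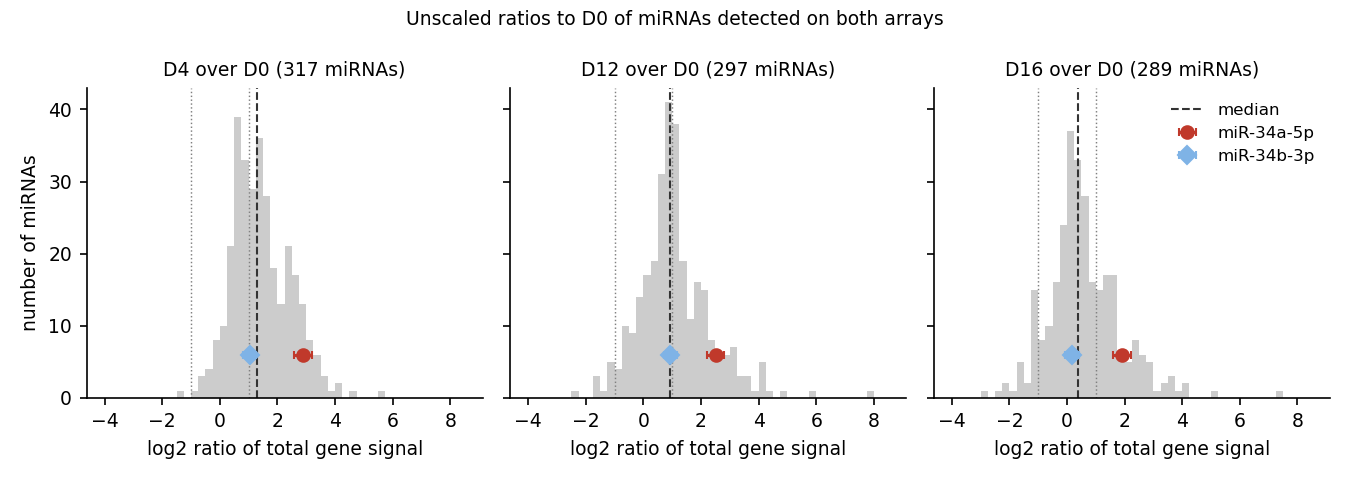
Number of miRNAs (vertical axis) by unscaled log2 ratio of total gene signal to D0 (horizontal axis), for miRNAs detected on both arrays, with the median as a dashed line, 2-fold in each direction as dotted lines and bars for the within-array error of the members. mmu-miR-34a-5p lies at 2.89, 2.51 and 1.90, right of the medians of 1.30, 0.94 and 0.40, and mmu-miR-34b-3p lies at 1.04, 0.94 and 0.17, near them; on scales with a median of 0 the latter falls on the other side of D0 at D4 and D16.

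Among the 283 miRNAs detected on all 4 arrays, the patterns most like that of mmu-miR-34a-5p were taken by the distance between log2 ratios to D0 over the 3 later days. They were mmu-miR-669d-3p at a distance of 0.14, mmu-miR-669i at 0.17, mmu-miR-342-3p at 0.25, mmu-let-7b-5p at 0.25 and mmu-miR-7070-3p at 0.38, beside a median distance of 2.80 and a distance of 2.99 for mmu-miR-34b-3p. For mmu-miR-669d-3p the unscaled ratios were 7.72, 5.23 and 3.82 at D4, D12 and D16. After quantile normalization 3 of these 5 stayed among the nearest. Over probes detected on all arrays none did, and mmu-miR-467g, mmu-miR-466m-3p, mmu-miR-669e-3p, mmu-miR-23a-3p and mmu-miR-467b-3p took their place, so the neighbours depend on the probe that was left out at D0. In the order of D12 over D0, mmu-miR-23b-3p at 5.89 and mmu-miR-211-5p at 5.89 stood just above mmu-miR-34a-5p, and mmu-miR-7070-3p at 5.47 and mmu-miR-92a-3p at 5.40 just below.

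The miR-449 family shares the 5p seed and stands in for miR-34 in ciliated cells. mmu-miR-449a-5p, mmu-miR-449b and mmu-miR-449c-5p were not detected on any day, and the highest of their probes stood at 0.718 times its error. Of the 4 miRNAs with this seed in the RefSeq table, those of the miR-34 hairpins were the ones detected.

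Other miRNAs that p53 raises by transcription or processing were measured as a list. Of its 10 names 8 were on the array, where 2 were detected at D0 and 5 on each later day. Of all 1881 miRNAs, 329 were detected at D0 and 426, 406 and 380 on the later days. mmu-miR-107-3p, made from an intron of Pank1, went from 4.25 at D0 to 49.4, 58.9 and 45.6, and mmu-miR-16-5p, which slows the cell cycle, from 6.59 to 68.6, 69.5 and 45.4. These 2 were above 2-fold on each later day, unscaled and after quantile normalization, where 62.1%, 47.8% and 31.1% and then 11.7%, 12.8% and 13.8% of all miRNAs were, with a median unscaled ratio of 11.02, 12.2 and 8.81 beside 2.47, 1.91 and 1.32 over all miRNAs. mmu-miR-15a-5p was not detected at D0 and stood at 36.7, 69.8 and 50.7, which is 5.52, 10.8 and 9.91 times its D0 limit with a common spot size, chosen after the data were seen. With the 75th percentile it was 1.68, 4.15 and 4.38 times that limit. mmu-miR-192-5p and mmu-miR-143-3p were detected from D4 on at signals of 3.48 to 4.91 from 1 of their 2 probes. Unscaled, this is 0.695 to 0.9998 times the D0 limit of both probes, so their detection shows no rise over D0 by that limit. Against the D0 limit of the summed probe alone it is 1.39 to 1.997 times unscaled and 1.25 to 1.76 times with a common spot size. With the 75th percentile it is below that limit. mmu-miR-194-5p, mmu-miR-215-5p and mmu-miR-145a-5p were not detected. Between D4 and D12, mmu-miR-15a-5p had a ratio of 1.91 and mmu-miR-107-3p of 1.19, beside 0.766 for mmu-miR-34a-5p.

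A further list held miRNAs known to rise in dystrophic muscle. mmu-miR-214-3p, known from skeletal development, stood at 23.5, 185, 96.1 and 52.8 from D0 to D16 and mmu-miR-130a-3p, which lowers Pparg, at 15.4, 84.7, 143 and 107. From D4 to D12 mmu-miR-214-3p had a ratio of 0.519 beside 0.766 for mmu-miR-34a-5p, and mmu-miR-130a-3p of 1.69 beside 1.34 for mmu-miR-34b-5p. From D4 to D16 these ratios were 0.285 beside 0.503, and 1.26 beside 0.961, the last pair on opposite sides of 1. The differences were not tested. Against D0, both were above 2-fold on each later day without scaling, where 62.1%, 47.8% and 31.1% of all miRNAs were. After quantile normalization mmu-miR-214-3p was above at D4 only and mmu-miR-130a-3p at D12 and D16, where 11.7%, 12.8% and 13.8% of all miRNAs were.

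Unscaled signals of markers of the cells and of other sources differed between the days too. Of 5 adipocyte miRNAs, 2 were detected at D0, 4 at D4 and 5 at D12 and D16. Of all 1881 miRNAs, 329, 426, 406 and 380 were detected from D0 to D16. The 2 adipocyte miRNAs detected at D0 were above 2-fold on each later day, unscaled and after quantile normalization. Of all miRNAs 62.1%, 47.8% and 31.1% were above unscaled, and 11.7%, 12.8% and 13.8% after quantile normalization. The summed signal of the list was 6.74, 126, 172 and 127 in the order of the days, with mmu-miR-103-3p giving the highest signal. Signals of different probes do not rank amounts of RNA, here or in the lists that follow. The summed signal of the mesenchymal miRNAs, of which 3 of 4 were detected on each day, was 227, 1563, 994 and 677, the highest signal being that of mmu-miR-21a-5p at D0 and D4 and of mmu-miR-199a-3p at D12 and D16, with mmu-miR-145a-5p not detected. Without scaling, 3, 3 and 2 of these 3 were above 2-fold at D4, D12 and D16, beside 62.1%, 47.8% and 31.1% of all miRNAs, and after quantile normalization 3, 1 and 1, beside 11.7%, 12.8% and 13.8%. The list of multiciliated epithelium was detected only through mmu-miR-34b-5p and mmu-miR-34c-5p, since both of its miR-449 miRNAs were not detected. Of 3 red blood cell miRNAs on the array 1 was detected at D0 and 3 later, and their sum was 9.40, 468, 2524 and 1649, with the highest signal from mmu-miR-451a. Of 2 leukocyte miRNAs none was detected at D0, 1 at D4 and 2 at D12 and D16, and their sum was 16.9, 76.9 and 52.9 from D4 on, with the highest signal from mmu-miR-223-3p. The liver miRNA mmu-miR-122-5p was detected at 6.26 at D12 and 4.13 at D16 only, and the 3 miRNAs of striated muscle were not detected. The part of red blood cell, leukocyte or liver RNA in the signals of the miR-34 family was not tested.

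**Figure D5:**
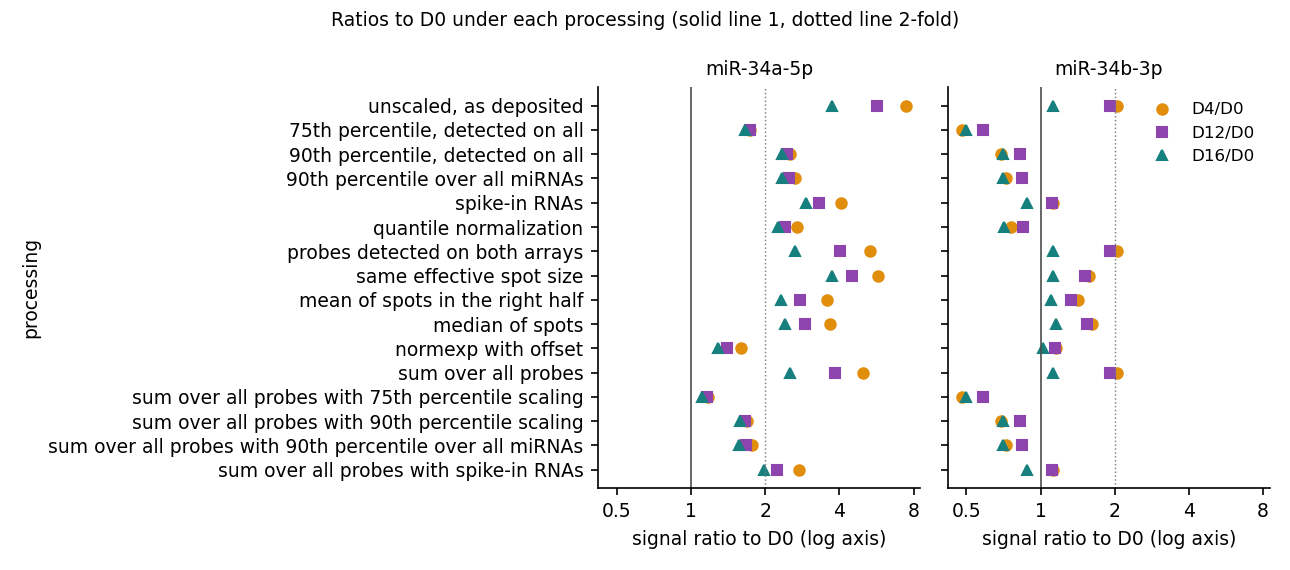
Signal ratio to D0 (horizontal log axis) of mmu-miR-34a-5p and mmu-miR-34b-3p under each processing (vertical axis), with symbols for D4, D12 and D16, a solid line at 1 and a dotted line at 2-fold. All points of mmu-miR-34a-5p lie above 1, from 1.11 to 7.42, while those of mmu-miR-34b-3p lie on both sides of 1, from 0.481 to 2.05.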

How the data were processed

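Each of the 4 arrays (D0, D4, D12, D16) is a sample named by its label. Per the file headers, the authors deposited intensity values from Feature Extraction 11.0.1.1, background-subtracted and not scaled across arrays. The total gene signal sums the probes above 3 times their error and is listed at 0.1 if none is, a rule tested on the files for all 1881 miRNAs. The sources differ on how many experiments were pooled per array. From these values ratios to D0, probe sums, ranks and distances were computed with Python 3.11.15, numpy 2.4.6 and pandas 2.3.3, without scaling, since the methods name none between arrays. How the published ratios were scaled was not established. Errors were propagated from the software's errors. Normexp (offset 50) used median spot signals, limma 3.58.1 and R 4.3.3. The steps were tested on simulated data. Alternatives were scalings, detection rules, probes, spots and thresholds. Named miRNAs are the members, relatives, list members, nearest patterns and rank neighbours. The members and lists were chosen with earlier results of these data known. Sequences came from a RefSeq table, which matched 1608 of the 1881 names. The array header names another assembly.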

Additional observations from a re-analysis of the deposited data

Results flagged for a closer look

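Spots of mmu-miR-34c-3p, which was called not detected on every day, carried a signal in a flag that the report did not use. The software marks a spot as positive and significant when it stands above its local background. For probe A_54_P4417 this held for 7 of 15 spots at D0 and for 15 of 15 at D4, 15 of 15 at D12 and 15 of 15 at D16. Among negative control spots the share was 19.5%, 21.4%, 22.7% and 34.4% from D0 to D16, and among all miRNA spots 32.5%, 36.6%, 35.4% and 35.9%. The mean spot signal of the probe was 12.8 ± 4.43 (SD over 15 spots) at D4, against 1.63 ± 4.02 over 1000 negative control spots. The other probe, A_54_P3384, had 7, 10, 10 and 9 marked spots from D0 to D16. At D0 the flag also marked spots of other probes that were called not detected there. These were 13 and 14 of 15 spots for the probes of mmu-miR-34b-5p and 7 and 12 for those of mmu-miR-34c-5p. For A_54_P2498 of mmu-miR-34a-5p they were 14 of 15. The cause was not tested.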

How the results depend on the processing

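The direction of the miR-34a-5p ratio was above D0 in all 15 alternatives, for which no error was computed, and its size was not stable. In the order D4, D12 and D16, it was 1.74, 1.73 and 1.65 with the 75th and 2.51, 2.45 and 2.34 with the 90th percentile of miRNAs detected on all arrays, 2.63, 2.49 and 2.33 with the 90th percentile over all miRNAs, and 2.70, 2.40 and 2.24 after quantile normalization. At D4 and D12 it was 4.07 and 3.30 with the spike-in RNAs, and at D4 5.71 with the same effective spot size. It was 5.34, 4.03 and 2.65 over shared probes, 3.56, 2.76 and 2.31 over spots in the right-hand part of the arrays, 3.65, 2.89 and 2.40 from spot medians, and 1.59, 1.39 and 1.28 with normexp, whose offset pulls ratios of dim spots toward 1. Alternatives chosen after seeing the data gave 4.996, 3.83 and 2.51 with all probes summed, and with scaling added 1.17, 1.16 and 1.11 (75th percentile), 1.69, 1.65 and 1.57 (90th), 1.77, 1.67 and 1.57 (90th over all miRNAs) and 2.74, 2.22 and 1.97 (spike-in RNAs). The D4 ratio of miR-34b-3p, 2.05, turned to 0.481 and 0.693 with the 75th and 90th percentiles, 0.727 with the 90th over all miRNAs, 0.758 after quantile normalization and, with all probes, to 0.481, 0.693 and 0.727 with the same 3 percentiles. The signal of miR-34b-5p, 3.87, 5.17 and 3.72 times its D0 limit, was 2.98, 4.08 and 3.72 times with a common spot size, also chosen after seeing the data. The causes were not tested.

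At D0, 4 members in place of 2 passed 2 times the error, as did 439 in place of 329 of all 1881 miRNAs. The stricter rules and the other days gave 4 or 5 members, or 2 at D0, where 235 to 529 of all miRNAs passed. The counts above 2-fold, 197, 142 and 90, were 119, 81 and 51 at 3-fold, 46, 43 and 42 with the 90th percentile, 52, 43 and 42 over all miRNAs, and at D4 and D12 92 and 72 with the spike-in RNAs. The counts below 0.5, 1, 10 and 27, were 3, 20 and 45 at 1.5-fold, 0, 1 and 8 at 3-fold, 55, 61 and 56 with the 90th percentile, 46, 58 and 56 over all miRNAs, and at D4 and D12 13 and 34 with the spike-in RNAs.

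No paired analysis was possible because each day has 1 array and no result comes from a test. Weak signals limit miR-34c-5p. The median error was 13.2% of the signal at D0 and 11.1%, 11.6% and 11.8% on the later arrays.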
